A study of Arabidopsis thaliana with 12 samples.

Results

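Translation on the cytosolic ribosome is started and sustained by protein factors, and 60 Arabidopsis loci for such factors were followed here, the listed genes of eIF1, eIF1A, eIF2, eIF2B, eIF3, eIF4, eIF5, eIF5A, eIF6, eEF1B and eEF2. A locus was kept where a probe set of the array carried that gene and no other, and none of the kept loci had a choice of probe sets. By this rule 22 of the 60 loci were measured, out of 13286 genes with such a probe set in the whole series. They were 3 of 4 eIF1 genes, 2 of 2 eIF1A genes, 2 of 5 eIF2 genes, 5 of 9 eIF2B genes, 4 of 16 eIF3 genes, 2 of 3 eIF4A genes, 2 of 2 eIF5 genes and 2 of 6 eEF1B genes. No gene of eIF4E, eIF4G, eIF4B, eIF5A, eIF6 or eEF2 had a probe set of its own name. All measured genes but EIF4A-2 (AT1G54270) go by a locus code in the annotation, while most unmatched loci have a gene symbol. Coverage thus went with naming, and whether unmatched genes lack a probe set on the array or only a match was not tested. A further 4 loci (AT1G53900, AT2G44070, AT1G09640 and AT1G57720) were named only on probe sets shared by several genes and were not analysed here, and the other 34 had no named probe set here. The family and subunit names follow the list of loci and the known Arabidopsis gene families, because the annotation gives most of the measured genes by locus code alone.

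The arrays hold RNA of whole seedlings of Arabidopsis thaliana aged 3 days, with 3 arrays in each of 4 groups. The tor seedlings carried an estradiol-inducible RNAi construct against the TOR kinase gene and were given 15 mM glucose for 2 h or no glucose, and wild-type (WT, Col-0) seedlings received the same 2 treatments. All were grown in liquid medium at 22 °C under 75 uE of light and a 12 h photoperiod, and glucose was added once the seed reserves had been used up. The sources used here do not give the number of independent RNAi lines or say whether the inducer was added to WT seedlings too, so that silencing of TOR and exposure to estradiol cannot be told apart. Arrays of 1 group are called biological replicates by the labels, with nothing on whether they were separate cultures, so a p-value here weighs a difference against the spread between arrays, which may be technical.

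Initiation of translation begins when eIF1, eIF1A and eIF3 bind the small ribosomal subunit and eIF2 delivers the initiator tRNA with GTP. The eIF4 proteins bind the cap and unwind the mRNA leader, eIF5 triggers GTP hydrolysis by eIF2 at the start codon, and eIF2B reloads eIF2 with GTP, as worked out mostly in yeast and mammals. In elongation, eEF1B reloads eEF1A, the carrier of aminoacyl-tRNA, and eEF2 moves the ribosome along. TOR is a nutrient-activated protein kinase that promotes translation and growth in plants as in yeast and animals.

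Levels are RMA values on the log2 scale, 1 value per gene and array, and can be compared between arrays for 1 gene but not between genes. Array medians over all probe sets were 6.76 to 6.86 on the 6 tor arrays and 6.53 to 6.68 on the 6 WT arrays. TOR itself (AT1G50030) had 0 probe sets of its own name, so the silencing was not checked. As to the tissue, 2 of 10 listed photosynthesis genes were measured and both were bright, with LHCB4.1, an antenna protein, at 13.5 to 13.7 in tor and 13.7 to 13.9 in WT seedlings. The pollen gene AT5G45880, the only measured member of 3 on its list, lay between 4.27 and 5.23, and no listed seed storage or flower gene was measured. Of 4 listed root hair genes 2 were measured, and EXPA7 separated the genotypes, at 4.73 to 4.97 in tor seedlings and 6.44 to 7.54 in WT seedlings. EXPA18 separated them with glucose, at 5.18 to 5.40 in tor and 5.81 to 6.08 in WT seedlings. Without glucose EXPA18 overlapped, at 5.45 to 5.49 in tor and 4.65 to 5.89 in WT seedlings. LHCB4.2, the other photosynthesis gene, was higher in tor, at 13.2 to 13.4 and 12.2 to 13.0 in tor and WT. The part of these differences in the genotype comparisons below was not tested. In whole seedlings, fewer cells of a type and less RNA per cell cannot be told apart.

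In WT seedlings, glucose raised 7 of the 22 measured translation factor genes and lowered 2. The genes that rose encode eIF3d, eIF5, eIF4A, a subunit each of eIF2B, eIF2 and eEF1B, and eIF1A, whereas both that fell encode eIF1. A gene is said to have risen or fallen where the difference passed an adjusted p under 0.05 in limma, with Benjamini-Hochberg adjustment over all 22746 probe sets. Of all probe sets 24% were called in this comparison, 13.5% higher and 10.5% lower, against 40.9% of the translation factor genes. The WT arrays with and without glucose did not overlap for 14 of the 22 genes, 11 higher and 3 lower with glucose, beside 39.1% of all probe sets (21% higher and 18.1% lower). The median change over the 22 genes was a log2 difference of 0.35 ± 0.10 (SD over the 3 pairs of same-numbered arrays), beside -0.01 over all probe sets. Among probe sets with a mean of at least 5, which take in 20 of the 22 genes, 33.7% were called.

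**Figure D1:**
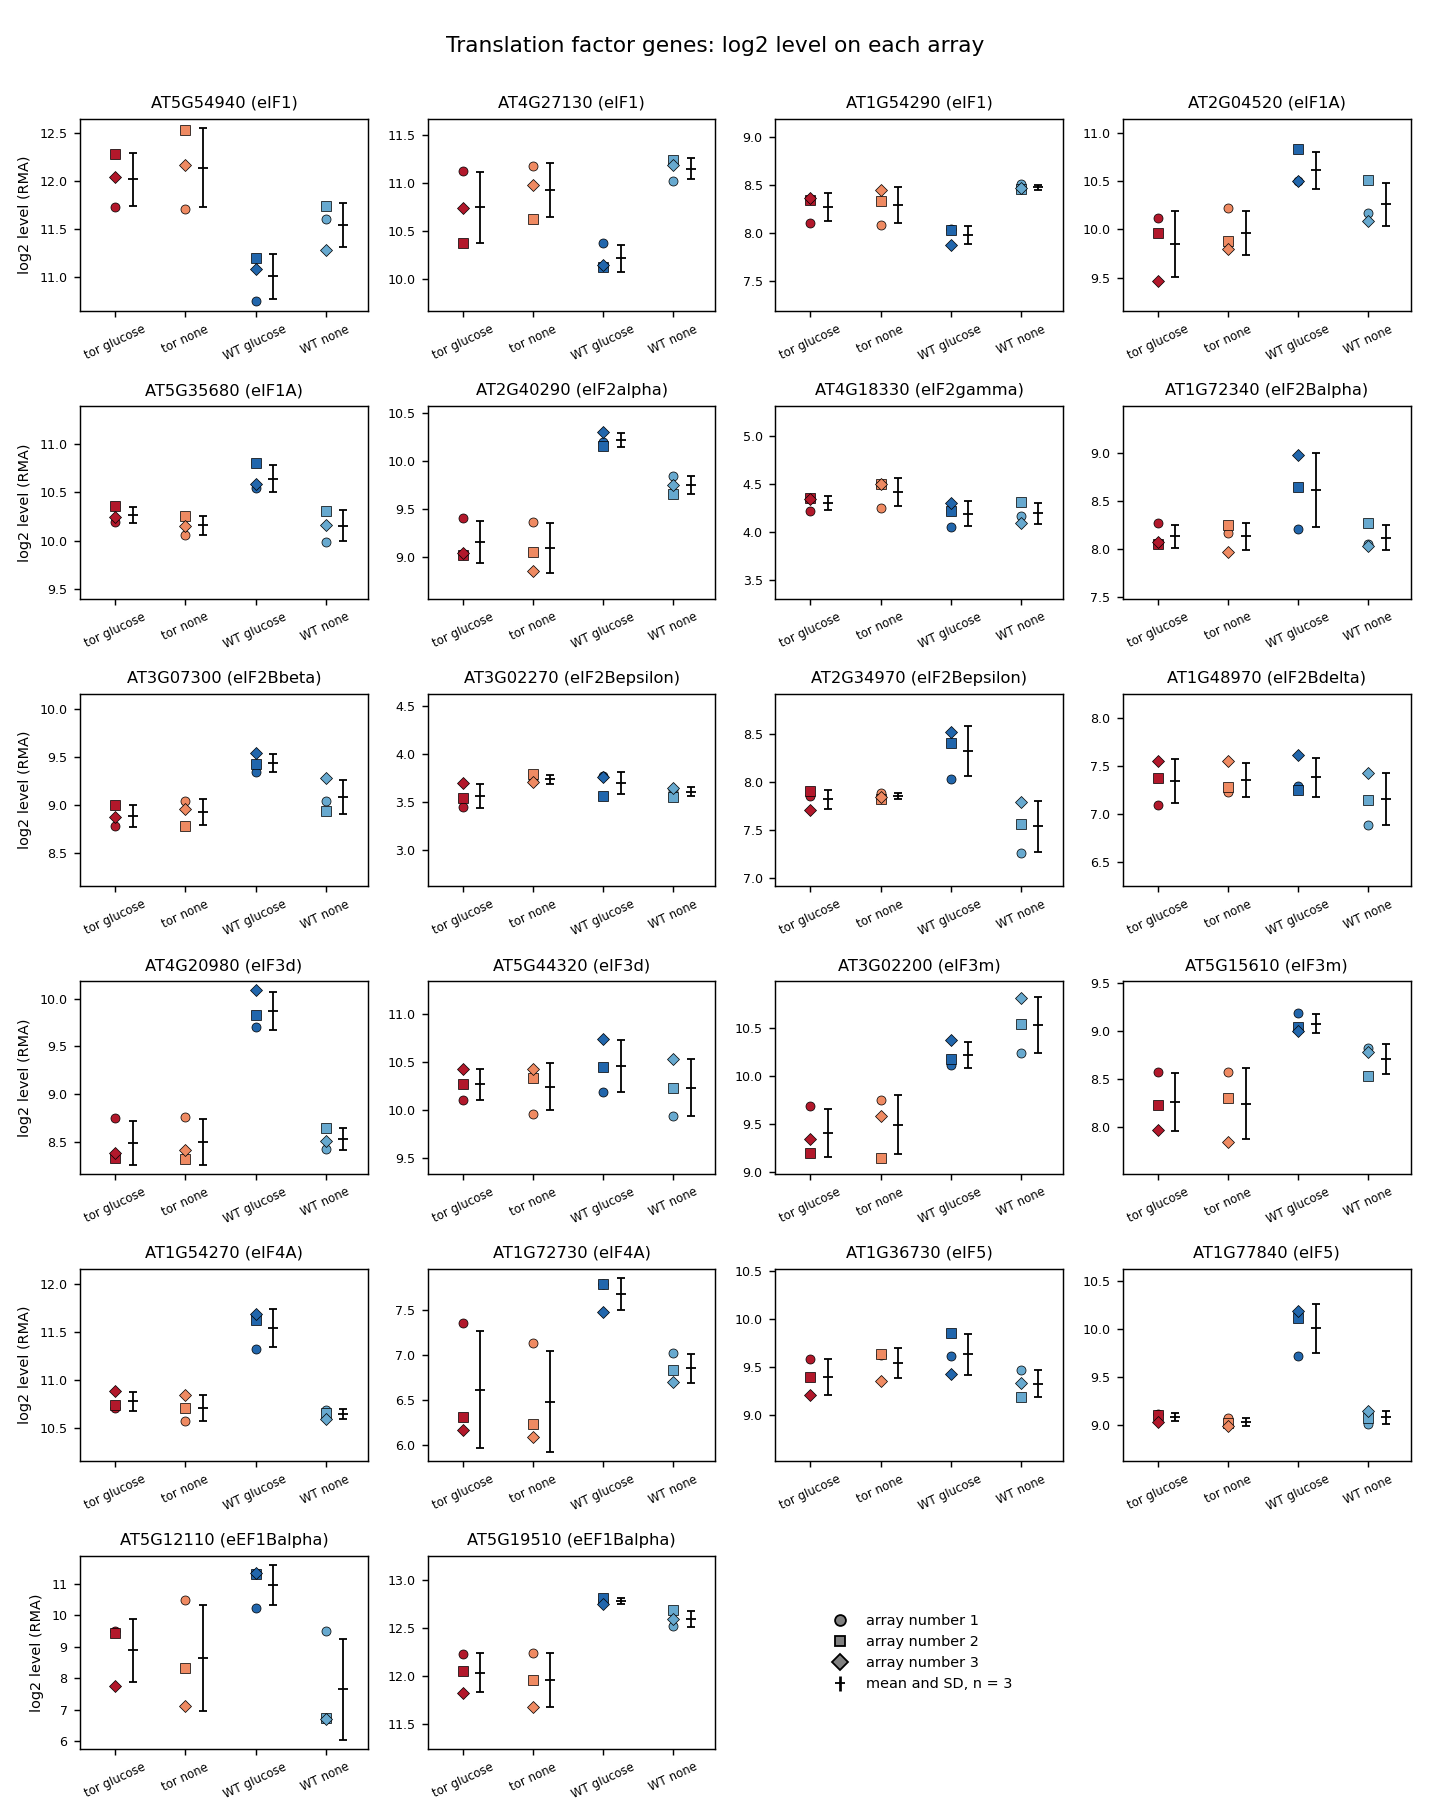
Log2 level (RMA, y axis) of the 22 measured translation factor genes on each of the 12 arrays, by group (x axis), with circles, squares and diamonds for arrays numbered 1, 2 and 3 and bars for the mean and SD of 3. Each panel has its own y range. The 3 WT glucose arrays of AT4G20980 (eIF3d) lie at 9.70 to 10.09, above all other arrays of that gene, and the arrays of AT5G12110 (eEF1Balpha) spread over more than any other gene's.

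eIF1 guards the choice of the start codon during scanning. Of its 3 measured genes, AT4G27130 stood at 10.38, 10.12 and 10.14 on the WT glucose arrays, against 11.02, 11.24 and 11.19 on the WT arrays without glucose. The groups did not overlap, and the gene fell by 0.93 ± 0.19 (log2 change ± standard error, adjusted p = 0.00541 in limma), 1.91-fold lower with glucose. AT1G54290 had 8.04, 8.03 and 7.87 with glucose and 8.50, 8.45 and 8.47 without, and it fell by 0.49 ± 0.12 (adjusted p = 0.0113 in limma). The third copy, AT5G54940, had 10.75, 11.20 and 11.08 with glucose and 11.60, 11.74 and 11.29 without. Its groups were also apart, but the log2 change of -0.53 ± 0.22 missed the threshold in limma (adjusted p = 0.116), and passed it with the replicate number as a block (adjusted p = 0.0194). All 3 eIF1 genes were thus lower in glucose-fed WT seedlings on each array, 2 of them past the test.

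eIF1A works beside eIF1 on the small subunit and holds the initiator tRNA in place. Its gene AT5G35680 had 10.55, 10.80 and 10.58 in WT seedlings with glucose, against 9.99, 10.31 and 10.17 without. It rose by 0.49 ± 0.12 on the log2 scale (adjusted p = 0.0110 in limma), in the direction opposite to the eIF1 genes. The other copy, AT2G04520, had 10.51, 10.83 and 10.50 with glucose and 10.17, 10.51 and 10.09 without, groups that overlapped slightly, with a log2 change of 0.35 ± 0.19 (adjusted p = 0.236).

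eIF2alpha (AT2G40290) is the regulatory subunit of the tRNA carrier and the target of inhibitory phosphorylation under stress. It stood at 10.20, 10.15 and 10.30 with glucose and 9.84, 9.65 and 9.75 without, a log2 rise of 0.47 ± 0.15 (adjusted p = 0.0397 in limma). The groups were apart, but the call rested on little: leaving out any 1 of the 6 WT arrays, or tor none array 2, put the adjusted p at 0.0503 to 0.126, and scaling the arrays to a common median put it at 0.0819. The other measured eIF2 gene, the eIF2gamma copy AT4G18330, was near the dim end at 4.05 to 4.50 on all arrays and had a log2 change of 0.00 ± 0.11.

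eIF2B, the exchange factor of eIF2, has 5 measured genes. Its catalytic subunit eIF2Bepsilon, gene AT2G34970, had 8.03, 8.41 and 8.52 with glucose in WT seedlings, against 7.26, 7.57 and 7.79 without. This was a log2 rise of 0.78 ± 0.16 (adjusted p = 0.00453 in limma), 1.72-fold. The regulatory subunits eIF2Balpha (AT1G72340) and eIF2Bbeta (AT3G07300) had log2 changes of 0.50 ± 0.18 and 0.35 ± 0.12 that missed the threshold in limma (adjusted p = 0.0651 and 0.0565). With the replicate block eIF2Bbeta passed it (adjusted p = 0.0406). For eIF2Bdelta (AT1G48970) the change was 0.23 ± 0.17, and the second eIF2Bepsilon copy, AT3G02270, lay at 3.44 to 3.79 on all arrays and changed by 0.09 ± 0.10.

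eIF3 is the large scaffold of the initiation complex, and 4 of its genes for 2 subunits were measured. eIF3d, which can bind the mRNA cap in human cells, is encoded by AT4G20980 and AT5G44320. AT4G20980 had 9.70, 9.82 and 10.09 in WT seedlings with glucose, against 8.43, 8.65 and 8.51 without. The log2 rise of 1.34 ± 0.16 (adjusted p = 0.000299 in limma) was 2.53-fold, the largest of the 22 genes after AT5G12110. In contrast, AT5G44320 had 10.19, 10.44 and 10.73 with glucose and 9.94, 10.23 and 10.52 without, overlapping groups with a log2 change of 0.22 ± 0.19 (adjusted p = 0.485). Neither gene of eIF3m, a peripheral subunit, was called: AT3G02200 changed by -0.31 ± 0.19 (adjusted p = 0.313) and AT5G15610 by 0.37 ± 0.20 (adjusted p = 0.225).

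eIF4A is the DEAD-box helicase that unwinds the mRNA leader. EIF4A-2 (AT1G54270) had 11.32, 11.63 and 11.68 with glucose and 10.69, 10.66 and 10.59 without in WT seedlings, a log2 rise of 0.90 ± 0.12 (adjusted p = 0.000534 in limma). Its paralogue AT1G72730 stood at 7.78, 7.78 and 7.47 with glucose, against 7.02, 6.83 and 6.69 without. The change of AT1G72730, 0.83 ± 0.32, was of like size and its groups were apart, but it missed the threshold in the fit of all 12 arrays (adjusted p = 0.0930). It passed with the replicate block (adjusted p = 0.0103) and with only the 6 WT arrays fitted (adjusted p = 0.00717).

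eIF5, the GTPase activator of eIF2, is encoded by AT1G77840 and AT1G36730. AT1G77840 had 9.72, 10.12 and 10.19 with glucose in WT seedlings and 9.02, 9.08 and 9.16 without, a rise of 0.92 ± 0.12 on the log2 scale (adjusted p = 0.000492 in limma). AT1G36730 had 9.61, 9.86 and 9.42 with glucose and 9.47, 9.19 and 9.33 without. Those groups overlapped, and the log2 change was 0.30 ± 0.15 (adjusted p = 0.178).

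eEF1Balpha is a subunit of eEF1B, the exchange factor that acts on eEF1A, and the listed eEF1Bbeta genes were not measured. Its gene AT5G12110 had 10.23, 11.30 and 11.34 in WT seedlings with glucose, against 9.49, 6.73 and 6.69 without. The groups did not overlap and the log2 rise was 3.32 ± 0.93 (adjusted p = 0.0243 in limma), 9.97-fold, with array 1 without glucose far above the other 2. Without that array the rise was 4.24 (18.9-fold, adjusted p = 0.00643), and without all 4 arrays numbered 1 it was 4.61 (24.4-fold, adjusted p = 0.000612). Leaving out WT array 2 or 3 of either treatment put the adjusted p between 0.0771 and 0.0966. The authors' deposited table gives this gene a log2 fold change of 3.3 by RMA and 1.6 by dChip, so its size also depends on the summary of the probes. The other copy, AT5G19510, stood at 12.79, 12.81 and 12.74 with glucose and 12.51, 12.68 and 12.59 without, groups that did not overlap, with a log2 change of 0.19 ± 0.15 (adjusted p = 0.444).

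In tor seedlings given the same glucose, 0 of the 22 genes passed the threshold in limma, and 0 had an unadjusted p under 0.05. Over all probe sets 0 were called (0%) and 313 had an unadjusted p under 0.05. The tor arrays with and without glucose did not overlap for 1 gene, the dim eIF2Bepsilon copy AT3G02270, lower with glucose, beside 5.05% of all probe sets (2.67% higher and 2.37% lower). The median change of the 22 genes was -0.01 ± 0.02 on the log2 scale (SD over 3 pairs), beside 0.01 over all probe sets. Single changes ran from -0.18 for the eIF1 gene AT4G27130 to 0.25 for the eEF1Balpha gene AT5G12110. For 16 of the 22 genes the 95% confidence interval lay within 0.5 of 0 on the log2 scale in both directions. Over all of them but AT5G12110 the intervals stayed between -0.61 and 0.85, and that of AT5G12110 ran from -1.80 to 2.30. These p-values and intervals are from the fit without a replicate block, although same-numbered tor arrays varied together. With the block 0 probe sets were called in tor as well.

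AT4G20980 (eIF3d) shows the contrast on single arrays: it had 8.75, 8.33 and 8.39 in tor seedlings with glucose and 8.77, 8.32 and 8.41 without, nearly the same for each array number, and its change was -0.01 ± 0.16. EIF4A-2 (AT1G54270) had 10.71, 10.74 and 10.89 with glucose and 10.58, 10.71 and 10.85 without, a log2 change of 0.07 ± 0.12. The eIF5 gene AT1G77840 had 9.12, 9.11 and 9.04 with glucose and a mean of 9.04 ± 0.04 without (SD, n = 3), a change of 0.05 ± 0.12. The eIF1 gene AT4G27130 had 11.12, 10.37 and 10.74 with glucose, against 11.18, 10.62 and 10.98 without, lower on each array by less than the spread within either group. For AT5G12110 the tor arrays were too scattered to show a response, at 9.50, 9.42 and 7.74 with glucose and 10.46, 8.33 and 7.12 without. The 7 genes called higher in WT had a median log2 change of 0.07 in tor seedlings and 0.90 in WT seedlings. These 7 were picked by their WT change, which raises their WT median, so the 2 medians are no fair contrast. Over all 22 genes, without that choice, the medians were -0.01 in tor and 0.35 in WT seedlings.

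**Figure D2:**
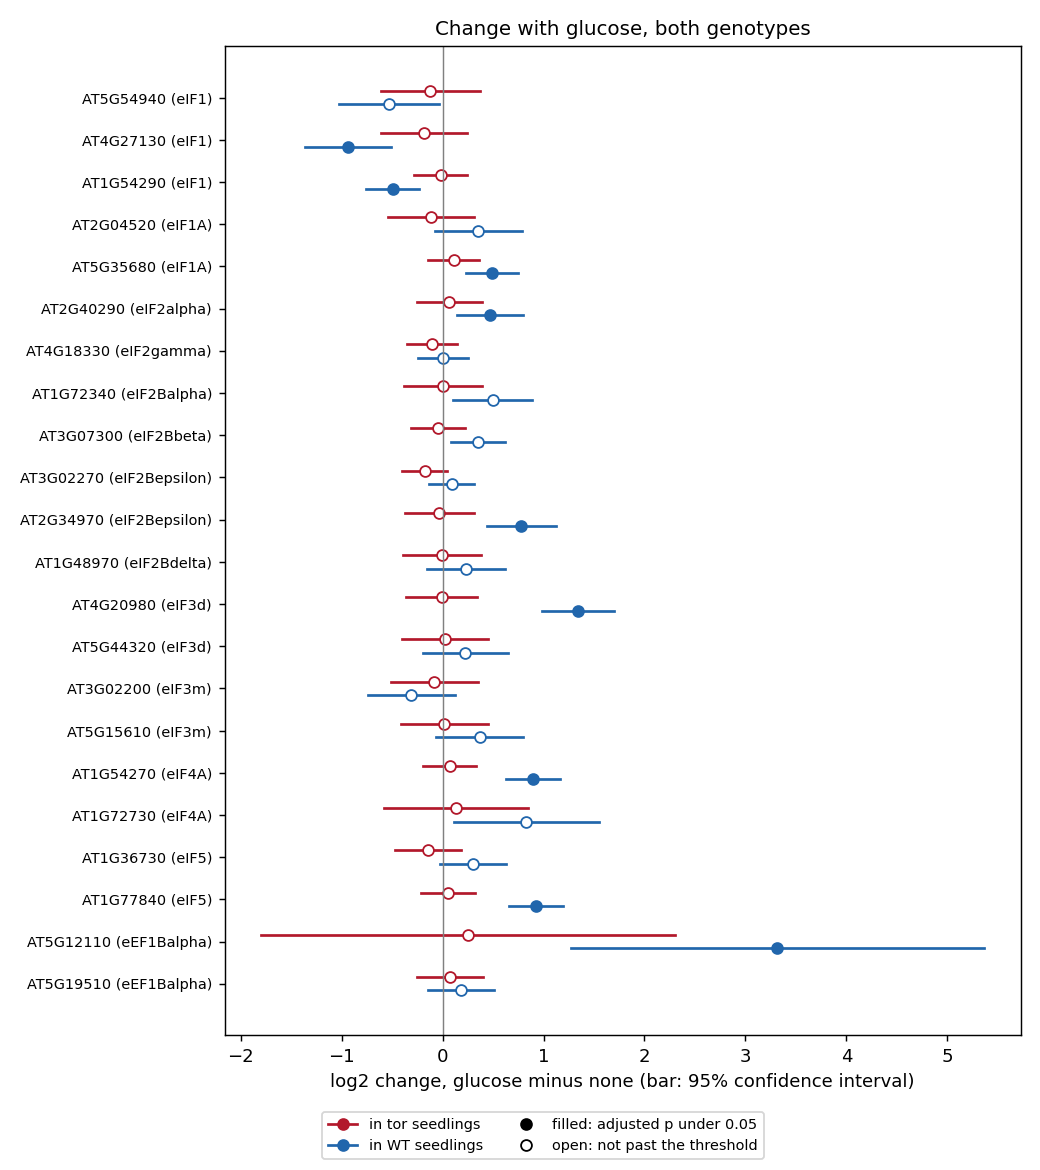
Log2 change with glucose (x axis, glucose minus none) of each measured translation factor gene (y axis), in tor seedlings (red, upper) and WT seedlings (blue, lower), with 95% confidence intervals from limma and filled points where the adjusted p is under 0.05. In tor seedlings 0 of 22 points are filled and all lie between -0.18 and 0.25, whereas in WT seedlings 9 are filled, 7 above 0 and 2 below.

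The difference between the responses was itself tested, as the tor response minus the WT response. For 3 of the 22 genes (13.6%) it passed the threshold, all with a smaller response in tor, beside 5.36% of all probe sets, 3.44% with a negative and 1.93% with a positive difference. Among probe sets with a mean of at least 5, 7.98% were called. The median difference over the 22 genes was -0.39 ± 0.03 (SD over 3 pairs), beside 0.01 over all probe sets. The difference was negative for 18 genes and positive for 4, while 51.1% of all probe sets had a positive difference. The 3 genes were AT4G20980 (eIF3d) at -1.35 ± 0.23 (adjusted p = 0.0104 in limma), AT1G77840 (eIF5) at -0.87 ± 0.17 (adjusted p = 0.0192) and AT1G54270 (EIF4A-2) at -0.83 ± 0.17 (adjusted p = 0.0216). The other measured copy of each was not called. These were AT5G44320 (eIF3d) at -0.20 ± 0.27 (adjusted p = 0.802) and AT1G36730 (eIF5) at -0.45 ± 0.21 (adjusted p = 0.274). The eIF4A copy AT1G72730 was at -0.70 ± 0.46 (adjusted p = 0.482). AT5G12110 had the largest estimate, -3.07 ± 1.31, but was not called (adjusted p = 0.225). For the 2 eIF1 genes that fell in WT the difference was positive and not called, 0.75 ± 0.27 for AT4G27130 (adjusted p = 0.147) and 0.47 ± 0.17 for AT1G54290 (adjusted p = 0.133).

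The eIF3d call of AT4G20980 held on leaving out any 1 array, but the other 2 did not. EIF4A-2 (AT1G54270) missed the threshold without array 2 or 3 of either WT group or without tor glucose array 2 (adjusted p = 0.0541 to 0.0630), and with the arrays scaled to a common median (adjusted p = 0.0503). AT1G77840 missed it without WT none array 2, WT glucose array 2 or tor glucose array 3 (adjusted p = 0.0530 to 0.0560). The number of genes called was 1 without array 2 of either WT group, and 6 without the 4 arrays numbered 1, a fit chosen after seeing the data. The genes added in that fit were AT2G34970 (eIF2Bepsilon, adjusted p = 0.0293), AT1G72730 (eIF4A, adjusted p = 0.0483) and AT5G12110 (eEF1Balpha, log2 difference -3.75, adjusted p = 0.0193). Shares over all probe sets are not given here for fits that left out arrays, so these counts are no result about the genes as a set. In the main fit AT2G34970 had a difference of -0.81 ± 0.22 and was not called (adjusted p = 0.0600 in limma). With the replicate block AT2G34970 was called too (adjusted p = 0.0288), while the count over all probe sets was 3043 in place of 1220.

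The genotypes were also compared within each treatment, tor minus WT. Without glucose 3 of the 22 genes were lower in tor and 0 higher (13.6%), beside 28.2% of all probe sets, 19.5% higher and 8.66% lower. The median difference of the 22 genes was -0.01 ± 0.08, and that of all probe sets 0.08. The share of all calls that were higher depended on scaling, at 69.3% as deposited, 50.7% after quantile normalization and 33% with arrays scaled to a common median. Scaling to the median lowered all differences by 0.24 here and by 0.18 in the comparison with glucose. The tor and WT arrays did not overlap for 6 genes, 2 higher and 4 lower in tor, beside 41.5% of all probe sets (27.1% higher and 14.4% lower). The genotype comparisons share their arrays with the glucose comparisons, so their calls are not separate evidence from those above.

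The 3 genes lower in tor without glucose encode eIF3m, eIF2alpha and eEF1Balpha. The eIF3m gene AT3G02200 had 9.75, 9.15 and 9.58 in tor seedlings, against 10.24, 10.54 and 10.81 in WT seedlings, a log2 difference of -1.04 ± 0.19 (adjusted p = 0.00312 in limma). eIF2alpha (AT2G40290) had 9.37, 9.05 and 8.86 in tor and 9.84, 9.65 and 9.75 in WT, and the difference was -0.65 ± 0.15 (adjusted p = 0.00800). For AT5G19510 (eEF1Balpha) the values were 12.24, 11.96 and 11.67 in tor and 12.51, 12.68 and 12.59 in WT, with a difference of -0.64 ± 0.15 (adjusted p = 0.00931). In each of the 3 the groups were apart, and each kept its call on leaving out any 1 array. The other eEF1Balpha copy, AT5G12110, had a difference of 1.00 ± 0.93 and was not called (adjusted p = 0.461 in limma).

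The paralogue of the eIF3m gene, AT5G15610, had 8.58, 8.31 and 7.85 in tor seedlings without glucose and 8.82, 8.53 and 8.78 in WT seedlings, overlapping groups with a difference of -0.47 ± 0.20 (adjusted p = 0.0984). The eIF1 gene AT5G54940 had 11.72, 12.53 and 12.17 in tor and 11.60, 11.74 and 11.29 in WT, a difference of 0.60 ± 0.22 (adjusted p = 0.0693). With the replicate block both were called, AT5G15610 lower (adjusted p = 0.0275) and AT5G54940 higher (adjusted p = 0.0103), so that 5 genes passed. The count was 5 without tor none array 1 and 6 without all arrays numbered 1, 7 with arrays scaled to a common median and 6 after quantile normalization. Over all probe sets 39.9% were called with the replicate block, 31.2% with that scaling and 26.9% after quantile normalization. Counted in either direction, the calls in these settings were therefore not particular to the translation factor genes. By direction the 22 genes had 1 higher and 4 lower with the block, 0 and 7 with that scaling, and 1 and 5 after quantile normalization. Of the calls over all probe sets 65.6%, 33% and 50.7% were higher, in the same order. That difference in direction was not tested. The share is not given here for fits that left out arrays. The 3 genes whose responses differed by the test had differences without glucose that were not called, -0.03 ± 0.16 for AT4G20980 (eIF3d), 0.06 ± 0.12 for AT1G54270 (EIF4A-2) and -0.05 ± 0.12 for AT1G77840 (eIF5).

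With glucose 13 of the 22 genes were lower in tor than in WT seedlings and 2 were higher (68.2%). Over all probe sets 41.4% were called, 25.4% higher and 16% lower, and among those with a mean of at least 5 the share was 49.8%. The tor and WT arrays did not overlap for 15 genes, 2 higher and 13 lower in tor, beside 53.4% of all probe sets (32.8% higher and 20.6% lower). The median difference of the 22 genes was -0.53 ± 0.22, beside 0.08 over all probe sets. The 13 lower genes covered eIF1A (2 of 2), eIF2 (1 of 2), eIF2B (3 of 5), eIF3 (3 of 4), eIF4A (2 of 2), eIF5 (1 of 2) and eEF1B (1 of 2), and both higher genes were among the 3 of eIF1.

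**Figure D3:**
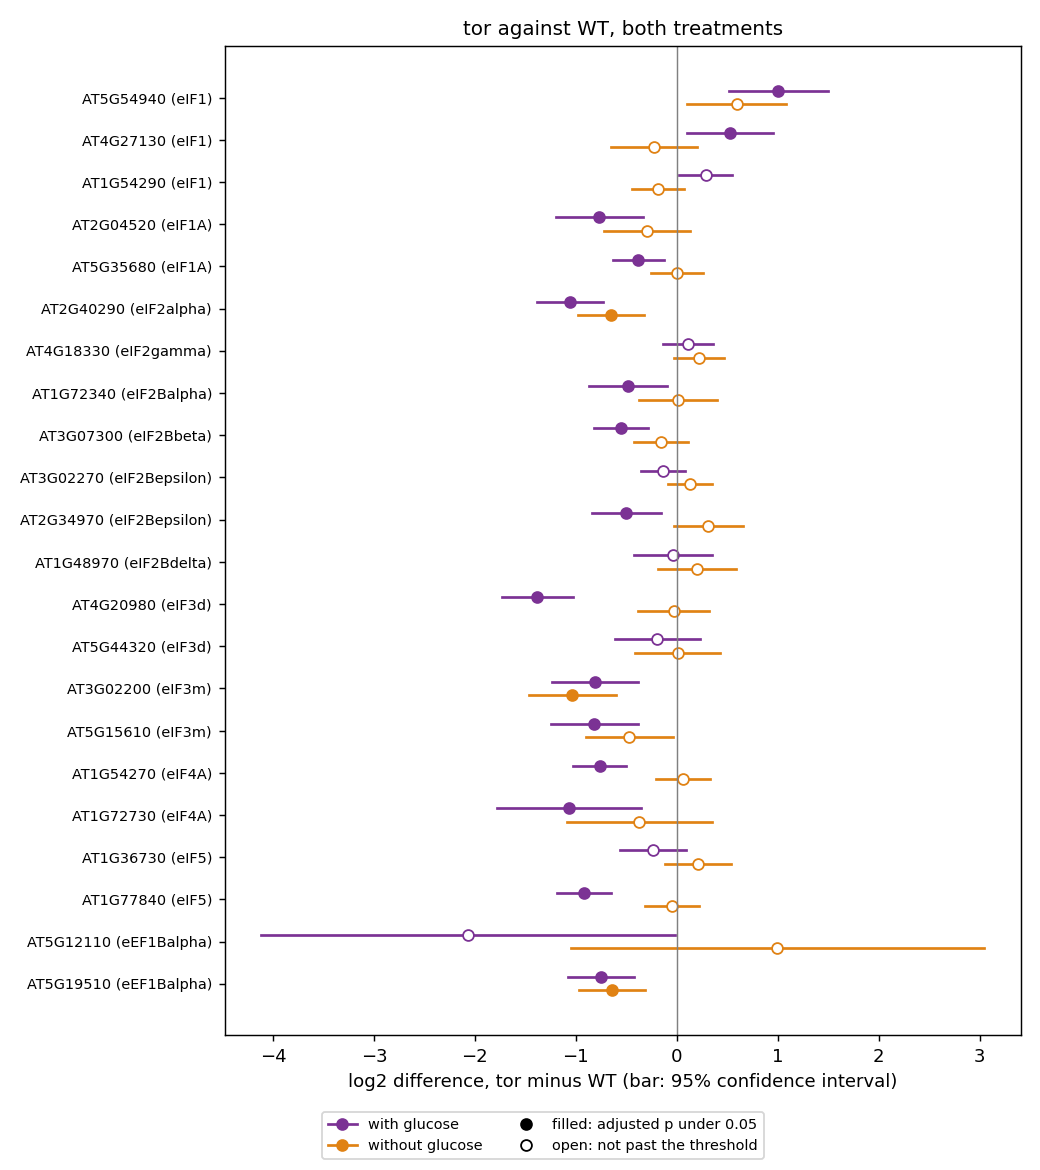
Log2 difference between the genotypes (x axis, tor minus WT) for each measured translation factor gene (y axis), with glucose (purple, upper) and without (orange, lower), with 95% confidence intervals from limma and filled points where the adjusted p is under 0.05. With glucose 13 filled points lie below 0 and the 2 above it are eIF1 genes, and without glucose 3 filled points lie below 0.

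Of the initiation factor genes among the 22, the most negative difference with glucose was that of AT4G20980 (eIF3d), at 8.75, 8.33 and 8.39 in tor seedlings and 9.70, 9.82 and 10.09 in WT seedlings, a log2 difference of -1.38 ± 0.16 (adjusted p = 0.000136 in limma). Its copy AT5G44320 differed by -0.19 ± 0.19 (adjusted p = 0.459). Both eIF3m genes were lower, AT3G02200 by a log2 difference of -0.81 ± 0.19 (adjusted p = 0.00741) and AT5G15610 of -0.82 ± 0.20 (adjusted p = 0.00730). The eIF2alpha gene AT2G40290 had 9.41, 9.03 and 9.04 in tor and 10.20, 10.15 and 10.30 in WT, and the difference was -1.06 ± 0.15 (adjusted p = 0.000372). This gene was thus lower in tor at both treatments, with groups apart each time, and the other listed eIF2alpha gene, AT5G05470, was not measured.

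The eIF4A genes differed by -0.76 ± 0.12 for AT1G54270 (EIF4A-2, adjusted p = 0.000688 in limma) and -1.07 ± 0.32 for AT1G72730 (adjusted p = 0.0230). For AT1G72730 the tor arrays themselves ran apart, at 7.35, 6.31 and 6.17, against 7.78, 7.78 and 7.47 in WT, and the call was lost without WT glucose array 1 or 2 or tor glucose array 2 or 3 (adjusted p = 0.0637 to 0.0919). The eIF5 gene AT1G77840 had a difference of -0.92 ± 0.12 (adjusted p = 0.000276), and AT1G36730 had a difference of -0.23 ± 0.15 (adjusted p = 0.233). Of the 2 eIF1A genes, AT2G04520 had a difference of -0.77 ± 0.19 (adjusted p = 0.00955) and AT5G35680 one of -0.38 ± 0.12 (adjusted p = 0.0229). The AT5G35680 call was lost without WT glucose array 2 or tor glucose array 1 or 3 (adjusted p = 0.0615 to 0.0914).

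Within eIF2B, the subunit genes lower in tor with glucose were AT3G07300 (eIF2Bbeta) at -0.55 ± 0.12 (adjusted p = 0.00446 in limma), AT2G34970 (eIF2Bepsilon) at -0.50 ± 0.16 (adjusted p = 0.0259) and AT1G72340 (eIF2Balpha) at -0.48 ± 0.18 (adjusted p = 0.0483). AT2G34970 lost its call without WT glucose array 2 or 3 or tor glucose array 3 (adjusted p = 0.0817 to 0.0959). AT1G72340 kept its call only without WT glucose array 1 or tor glucose array 1 (adjusted p = 0.0541 to 0.175 without any other single array), and without WT glucose array 3 its difference was -0.30. The eIF2Bdelta gene AT1G48970 differed by -0.04 ± 0.17 (adjusted p = 0.875), and the dim copy of eIF2Bepsilon, AT3G02270, by -0.14 ± 0.10 (adjusted p = 0.300).

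The eIF1 genes ran the other way. AT5G54940 had 11.74, 12.28 and 12.04 in tor seedlings with glucose, against 10.75, 11.20 and 11.08 in WT seedlings, a difference of 1.01 ± 0.22 (adjusted p = 0.00478 in limma), 2.01-fold higher. AT4G27130 had 11.12, 10.37 and 10.74 in tor and 10.38, 10.12 and 10.14 in WT, groups that overlapped slightly, with a difference of 0.53 ± 0.19 (adjusted p = 0.0478). That call was lost without tor glucose array 1, where the difference was 0.34 (adjusted p = 0.157), without any 1 of the 6 WT arrays, tor none array 3 or tor glucose array 3 (adjusted p from 0.0545), and with arrays scaled to a common median (adjusted p = 0.156). AT1G54290 had a difference of 0.29 ± 0.12 (adjusted p = 0.0734).

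Of the elongation factor genes, AT5G19510 (eEF1Balpha) was lower in tor with glucose, at 12.23, 12.05 and 11.82 in tor and 12.79, 12.81 and 12.74 in WT, a log2 difference of -0.75 ± 0.15 (adjusted p = 0.00262 in limma). AT5G12110 had 9.50, 9.42 and 7.74 in tor and 10.23, 11.30 and 11.34 in WT. Its groups were apart, but the difference of -2.07 ± 0.93 missed the threshold (adjusted p = 0.0981), and passed it with the replicate block (adjusted p = 0.0418).

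For subunits with more than 1 measured gene, whether the copies responded unequally was tested on the log2 ratio of a pair of probe sets on the same array. Only differences of such a ratio between groups have a meaning, since probe sets differ in brightness. Over 8 families and 10 pairs, 40 exact two-sided permutation tests were run, and with 3 arrays against 3 none could give a p below 0.1. The smallest p was 0.1 and the smallest value after Benjamini-Hochberg adjustment 0.364. As none could pass whatever the data, these tests do not decide whether copies responded unequally. In 11 of the 40 the groups did not overlap, and the share for other pairs of probe sets was not computed.

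For eIF3d the ratio of AT4G20980 to AT5G44320 was -0.49, -0.62 and -0.65 in WT seedlings with glucose, against -1.51, -1.58 and -2.01 without, a difference of 1.12 with groups apart (exact p = 0.1). In tor seedlings it was -1.35, -1.94 and -2.04 with glucose and -1.19, -2.01 and -2.01 without, overlapping groups with a difference of -0.04. The eIF5 ratio of AT1G36730 to AT1G77840 was -0.11, -0.26 and -0.76 with glucose in WT and 0.45, 0.10 and 0.18 without, a difference of -0.62 with groups apart. The eEF1Balpha ratio of AT5G12110 to AT5G19510 differed by 3.13 in WT with glucose, and the eIF3m ratio of AT3G02200 to AT5G15610 by -0.68, again with groups apart. Within eIF4A the ratio of AT1G54270 to AT1G72730 overlapped, with a difference of 0.07.

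**Figure D4:**
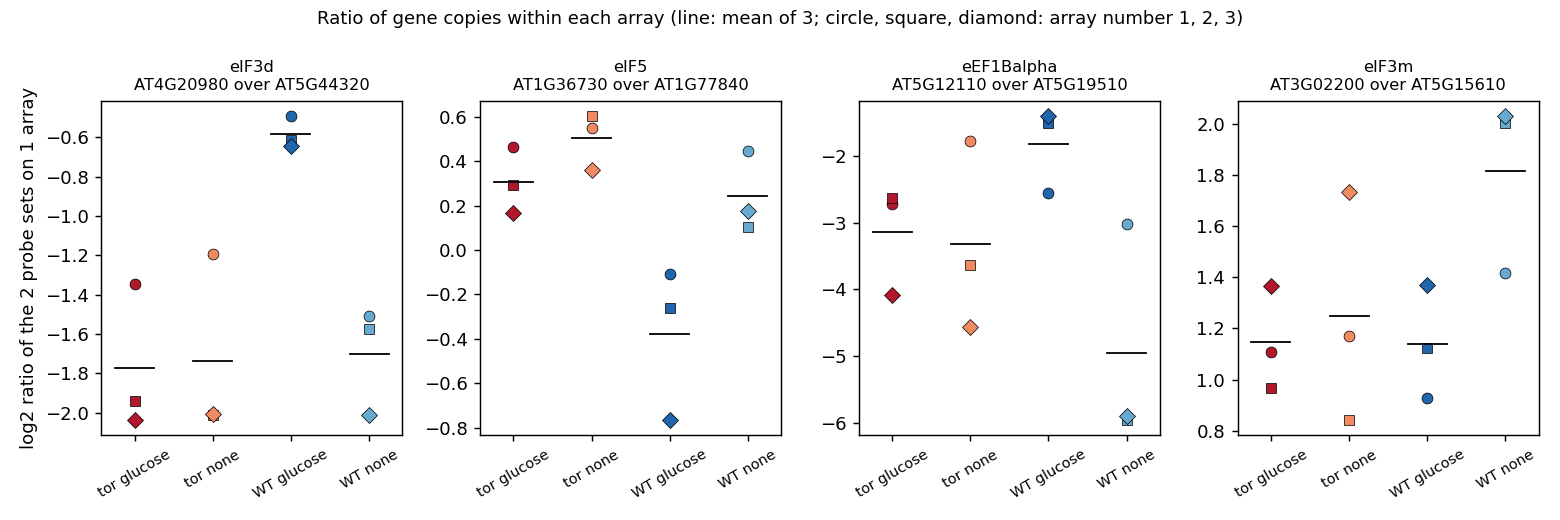
Log2 ratio of a pair of gene copies on the same array (y axis) for eIF3d, eIF5, eEF1Balpha and eIF3m in the 4 groups (x axis), with circles, squares and diamonds for arrays 1, 2 and 3 and lines for means of 3. The WT glucose arrays lie apart from the WT arrays without glucose in all 4 panels, and the tor arrays with and without glucose overlap. Only 4 of the 10 pairs are shown, and others, such as the eIF4A pair, overlap in WT seedlings.

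Array number moved with these levels. The median over the 22 genes was 9.27, 9.07 and 8.96 on tor arrays 1, 2 and 3 with glucose and 9.22, 8.91 and 8.91 without, against 9.71, 9.99 and 10.12 on WT arrays with glucose and 9.25, 9.01 and 9.22 without. In tor seedlings array 1 stood at the ends of its group, the highest for 12 of the 22 genes and the lowest for 9 with glucose, and the highest for 12 and the lowest for 7 without. In WT seedlings with glucose array 1 was the lowest for 12 genes and the highest for 4, and array 3 was the highest for 12 and the lowest for 6. The eIF4A gene AT1G72730 and AT5G12110 (eEF1Balpha) were among those with a high array 1 in tor seedlings, with array 1 without glucose far above the other 2 for each gene.

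Of 40 further genes of cytosolic translation that lie outside the 60 loci (other initiation, elongation and termination factors and enzymes that modify them), 11 were measured. In WT seedlings glucose raised 5 and lowered 1, with a median change of 0.39 ± 0.06 (SD over 3 pairs), beside 24% of all probe sets (13.5% higher and 10.5% lower), and in tor seedlings 0 were called. Among the 5 rises, that of eRF3 (AT1G18070), a termination factor, was lost without WT none array 1 or 2 or WT glucose array 2 or 3 (adjusted p = 0.0511 to 0.0941), and with arrays scaled to a common median (adjusted p = 0.0718). That of DENR (AT5G11900), a recycling and reinitiation factor, was lost without WT none array 2 or 3, any WT glucose array, tor none array 3 or tor glucose array 3 (adjusted p = 0.0505 to 0.120), and with that scaling (adjusted p = 0.0898). The largest rise was that of eIF3j (AT1G66070), a loosely bound eIF3 subunit, at 8.91, 9.28 and 9.52 with glucose and 8.02, 7.86 and 8.02 without, a log2 change of 1.27 ± 0.18 (adjusted p = 0.000739 in limma). eIF2A (AT1G73180), an alternative carrier of the initiator tRNA, rose by 0.76 ± 0.17 (adjusted p = 0.00729). The eIF5B copy AT1G21160, for a protein that joins the ribosomal subunits, fell by 0.77 ± 0.24 (adjusted p = 0.0369), a call lost without WT none array 2 or 3, WT glucose array 1 or 3, or tor glucose array 2 (adjusted p = 0.0524 to 0.138).

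The response of eIF3j differed between the genotypes by -1.30 ± 0.26 (tor minus WT, adjusted p = 0.0192 in limma), a call lost without array 2 of WT none, WT glucose or tor glucose or without tor glucose array 3 (adjusted p = 0.0540 to 0.0572). With glucose 2 of the 11 genes were higher in tor and 4 lower, beside 25.4% and 16% of all probe sets. Of these, the eIF5B copy AT1G21160 (higher) lost its call without WT none array 2, WT glucose array 1 or 3 or any tor glucose array (adjusted p = 0.0541 to 0.142). eIF2A (AT1G73180, lower) lost it without WT glucose array 1 or 3 or tor glucose array 2 or 3 (adjusted p = 0.0656 to 0.0990). With the replicate block AT5G11900 (DENR, lower, adjusted p = 0.0371) and AT4G18300 (an eIF2Bepsilon copy, higher, adjusted p = 0.0379) were called as well. eIF3j differed by -1.44 ± 0.18 (adjusted p = 0.000212). DOHH (AT3G58180), the enzyme of the last step in making hypusine on eIF5A, had 8.58, 8.49 and 8.34 in tor and 9.22, 9.34 and 9.32 in WT, a difference of -0.83 ± 0.12 (adjusted p = 0.000432). CBE1 (AT4G01290), a plant cap-binding complex protein, was higher in tor with glucose (0.81 ± 0.11, adjusted p = 0.000398) and without (0.84 ± 0.11, adjusted p = 0.000507). CBE1 had 2 probe sets of its own, and only that with the higher mean was analysed. Without glucose 3 of the 11 genes were higher in tor, beside 19.5% of all probe sets, and 0 lower. The calls other than CBE1 were an eIF5B copy, AT1G76810 (0.70 ± 0.23, adjusted p = 0.0464), and an eIF2Bepsilon copy, AT4G18300 (0.56 ± 0.18, adjusted p = 0.0360), both lost with arrays scaled to a common median (adjusted p = 0.160 and 0.196). AT1G76810 kept its call only without WT none array 3, WT glucose array 1 or tor none array 1 (adjusted p = 0.0562 to 0.144 otherwise), and without WT none array 1 its difference was 0.43. AT4G18300 lost its call without WT none array 1 or 3, WT glucose array 2 or tor none array 2 or 3 (adjusted p = 0.0516 to 0.131). eIF2D (AT1G71350) was called higher too with the replicate block (adjusted p = 0.0446).

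Translation in mitochondria and plastids uses bacterial-type factors, and 7 of 13 listed genes for them were measured. In WT seedlings glucose raised 3, all mitochondrial, and lowered 1 of the plastid, beside 13.5% and 10.5% of all probe sets. Mitochondrial EF-Tu (AT4G02930) rose by 1.51 ± 0.20 (adjusted p = 0.000567 in limma), EF-Ts (AT4G11120), its exchange factor, by 1.36 ± 0.12 (adjusted p = 7.41e-05), and the initiation factor IF2 (AT4G11160) by 1.21 ± 0.20 (adjusted p = 0.00149). Plastid IF3 (AT4G30690) had 9.01, 8.37 and 8.33 with glucose and 9.95, 10.04 and 9.96 without, and fell by 1.41 ± 0.20 (adjusted p = 0.000658).

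In tor seedlings 0 of the 7 organelle genes were called. The responses of 3 genes (beside 5.36% of all probe sets) differed between the genotypes for EF-Ts by -1.17 ± 0.17 (tor minus WT, adjusted p = 0.00591 in limma), for EF-Tu by -1.13 ± 0.29 (adjusted p = 0.0495) and for plastid IF3 (AT4G30690) by 1.21 ± 0.28 (adjusted p = 0.0330). The EF-Tu (AT4G02930) call was lost without any single array but WT none array 1 or tor glucose array 1 (adjusted p = 0.0607 to 0.123), and with arrays scaled to a common median (adjusted p = 0.0643). The IF3 call was lost without any array but number 1 of WT none, WT glucose or tor none (adjusted p = 0.0508 to 0.0876). Mitochondrial IF2 (AT4G11160) was called too with the replicate block, at -0.97 (adjusted p = 0.00962, against 0.0728 without the block).

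Without glucose EF-Ts (AT4G11120) was higher in tor, at 7.24, 7.19 and 7.35, against 6.31, 6.66 and 6.77 in WT, a difference of 0.68 ± 0.12 (adjusted p = 0.00235). It was the only 1 of the 7 organelle genes called without glucose, beside 28.2% of all probe sets. With the replicate block 5 of them were called, beside 39.9% of all probe sets. Those added were IF2 (AT4G11160), higher in tor (adjusted p = 0.0229), and 3 plastid initiation factor genes lower in tor, AT4G11175 for IF1 (adjusted p = 0.00278), AT2G24060 for IF3 (adjusted p = 0.0133) and AT1G17220 for IF2 (adjusted p = 0.0340).

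With glucose 1 of the 7 organelle genes was higher in tor and 5 were lower, beside 25.4% and 16% of all probe sets. Of the 5, IF2 (AT4G11160) lost its call without any single array but WT none array 3, WT glucose array 1 or tor glucose array 3 (adjusted p = 0.0516 to 0.176), and without WT glucose array 3 its difference was -0.35. AT2G24060 lost its call without WT none array 2 or 3, any WT glucose array, tor none array 2 or tor glucose array 2 or 3 (adjusted p = 0.0538 to 0.153). AT4G11175 lost its call without WT glucose array 1 or 2 or tor glucose array 2 or 3 (adjusted p = 0.0681 to 0.110).

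In the authors' deposited table for WT seedlings, 9 of the 22 cytosolic factor genes were higher with glucose and 3 lower at an unadjusted p under 0.05, by RMA and by dChip alike. Of all probe sets in that authors' deposited table, 18.7% were higher and 16% lower at this threshold by RMA, and 18.8% and 15% by dChip. The authors' deposited table for tor seedlings had 0 such genes by either summary, beside 0.611% of all probe sets higher and 0.998% lower by RMA, and 0.391% and 0.985% by dChip. The median log2 fold change of the 22 genes was 0.4 in WT and 0.0 in tor in those tables, by both summaries.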

How the data were processed

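The deposited table holds log2 values, 1 per probe set and array, which the authors made with RMA, per the submitters' processing notes, with no version given. It is not known from the sources used here whether both genotypes were normalized together. Per the file headers, the authors also deposited, for each genotype, log2 fold changes of glucose against none from dChip and from RMA with a p-value each, whose test is not stated.

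Genes were assigned through the platform annotation and Entrez identifiers matched to RefSeq locus tags (TAIR10.1). Of 22810 probe sets, 64 controls were left out. A mean per group was fitted to all 12 arrays with limma 3.58.1 (lmFit and eBayes) in R 4.3.3, without a replicate block, and every adjusted p in the text is from this fit or the alternative named beside it, two-sided, with Benjamini-Hochberg adjustment over all probe sets tested. The 1 missing value (tor glucose array 3) is of no gene named here. No 2 arrays were identical. The number of arrays limits the precision. In data simulated for the glucose comparison in WT with 22745 probe sets, 60% of 50 probe sets with a log2 change of 1 were recovered and 22% of those with 0.5. Few probe sets were changed in that simulation and its noise was independent between arrays, while 24% were called in the data. Those rates thus do not measure the power of the test used here.

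Whether the replicate numbers of the labels pair the arrays was checked on deviations from the group means. These correlated at 0.199 to 0.863 in the 18 pairs of same-numbered arrays, and 12 of 12 arrays resembled their own number most. The correlation was highest between tor arrays with and without glucose (0.863, 0.678 and 0.811 for numbers 1, 2 and 3). Between WT arrays with and without glucose it was 0.314, 0.396 and 0.319. The fit without a block leaves this shared spread in the standard errors, most of all for glucose in tor. A fit with the number as a block is therefore given beside each result whose call it changes.

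By the rule for naming genes, any of the loci could be named with its levels. Full statistics were planned for up to 3 called loci per factor class with the largest changes, or the locus with the smallest p where none was called. They were also planned for all copies of a subunit of which only some were called, and for up to 3 called genes of each further list. Not all of these are printed for every comparison. Other values were chosen after they were seen. The loci and lists were chosen with earlier results of these data known. Alternatives were another scaling, filter, prior or set of arrays and leaving out arrays. Leaving out all arrays numbered 1, and blocking within the 6 arrays compared, were chosen after seeing the data. No sequences or coordinates were used here.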

Additional observations from a re-analysis of the deposited data

Results flagged for a closer look

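A response to glucose that differed between tor and WT seedlings by the test of the difference itself (tor minus WT, limma) singled out 7 genes. They were 3 of the 22 listed factor genes, 1 of the 11 further cytosolic genes and 3 of the 7 organelle genes. Of all 22746 probe sets, 1220 (5.36%) were called by the same test. The cytosolic factor genes were AT4G20980 (eIF3d) with a log2 difference of -1.35, AT1G77840 (eIF5) with -0.87, AT1G54270 (EIF4A-2) with -0.83 and AT1G66070 (eIF3j) with -1.30. The organelle factor genes were AT4G11120 (mitochondrial EF-Ts) with -1.17, AT4G02930 (mitochondrial EF-Tu) with -1.13 and AT4G30690 (plastid IF3) with 1.21. AT4G20980 and AT4G11120 kept their calls on leaving out any 1 array, and the other 5 lost theirs on leaving out at least 1.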

How the results depend on the processing

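Of 110 results for single genes (22 genes in 5 comparisons), 27 changed side of the threshold under at least 1 alternative and 0 reversed direction while called, and 21 of 30 calls were kept on leaving out any 1 array. With the replicate block, which follows the pairing of array numbers, 5 genes in place of 3 were called for tor against WT without glucose. With arrays centred on their medians that count was 7, its median difference was -0.26, and the medians were -0.032 for glucose in tor and -0.33 for the difference of responses. After quantile normalization the count without glucose was 6 and its median -0.15. Over all probe sets the share called without glucose was 39.9% with the block, 31.2% with centring and 26.9% after quantile normalization, in place of 28.2%. On leaving out any 1 array or all arrays numbered 1, counts ran from 7 to 11 for glucose in WT, 0 to 0 in tor, 1 to 6 for the difference of responses, and 3 to 6 and 10 to 16 for tor against WT without and with glucose. The medians ran from 0.28 to 0.39, -0.060 to 0.019, -0.45 to -0.34, -0.08 to 0.02 and -0.70 to -0.46 in that order. The counts of 11, 6, 6 and 16 and the median of -0.70 came from leaving out all arrays numbered 1, a fit chosen after seeing the data. Shares over all probe sets are not given here for these fits, so the counts are no result about the genes as a set. The causes were not tested. Over all probe sets, centring on medians put the share of higher calls at 45.6% in place of 56.4% for glucose in WT, 49.1% in place of 35.9% for the difference of responses, and 41.9% in place of 61.3% for tor against WT with glucose (49.5% after quantile normalization). A second probe set per gene was not run, because none of the 22 genes had 1. CBE1 (AT4G01290), of the further cytosolic list, had 2, and the dimmer was not analysed. With 3 arrays per group, a missed threshold does not show that a gene did not respond.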
